A study of Mus musculus with 12 samples.

Results

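The 32 genes described here encode subunits of glutamate receptors and the auxiliary proteins that assemble with them. They were taken by name from a list, which does not hold every gene of each family. All 32 were found by Ensembl identifier among the 55421 genes of the count table. They comprise 4 AMPA receptor genes (Gria1 to Gria4), 5 kainate receptor genes (Grik1 to Grik5), 6 NMDA receptor genes (Grin1, Grin2a to Grin2d and Grin3a), the delta receptor gene Grid1 and 6 metabotropic receptor genes (Grm2, Grm3, Grm4, Grm5, Grm7 and Grm8). The auxiliary proteins are 6 transmembrane AMPA receptor regulatory proteins (TARPs, Cacng2 to Cacng5, Cacng7 and Cacng8), 2 Neto proteins and 2 cornichons (Cnih2 and Cnih3). All 32 passed the low-count filter that left 20015 genes for testing, with 38 to 35789 counts per gene and library.

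PolyA RNA came from male wild-type C57BL/6 mice aged 10 to 12 weeks, each of which had heard 3 tones that ended in a foot shock of 0.7 mA. Directly afterwards they were injected intraperitoneally with dexmedetomidine, a sedative that activates alpha2 adrenergic receptors, at 40 µg per kg, or with as much normal saline. Tissue was taken 2 h after training from prelimbic (PL) or infralimbic (IL) cortex, adjoining parts of the medial prefrontal cortex. The 4 groups were PL with dexmedetomidine (PL Dex), PL with saline, IL with dexmedetomidine (IL Dex) and IL with saline, with 3 libraries in each. Mice that froze too little at the end of conditioning had been left out. All groups were conditioned, so no group gives the level in untrained mice. The extraction protocol names prelimbic tissue for every sample, whereas 6 titles name infralimbic cortex, and the titles were followed. Nothing in the labels says that replicates are separate animals; the spread behind each p-value is that between samples, which may be technical.

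The libraries held 6853832 to 7912150 counts in PL Dex, 6867249 to 8847876 in PL saline, 5419187 to 10874464 in IL Dex and 10603069 to 16530596 in IL saline. The first principal component of all tested genes, with 36.4% of the variance, separated PL from IL. Its scores were 20.1, 16.0 and 46.4 for PL Dex libraries 1 to 3, 19.1, 45.3 and 45.9 for PL saline libraries 1 to 3, and −36.0 to −27.9 for the IL libraries, so that 3 PL libraries stood nearer to IL than the other 3. Markers of excitatory cortical neurons were high in every library, with a summed level of 4034 to 4422 CPM (counts scaled to the library total) in PL Dex, 3545 to 4209 in PL saline, 2724 to 3605 in IL Dex and 2730.0 to 3365 CPM in IL saline. Markers of striatal medium spiny neurons, which belong to the striatum, summed to 300.0 to 511 CPM in PL Dex, 325 to 914 in PL saline, 1303 to 2023 in IL Dex and 1352 to 1684 CPM in IL saline.

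Glutamate carries most fast excitation in the cortex. AMPA receptors open within a millisecond of its release and carry the bulk of the synaptic current, NMDA receptors pass calcium when release meets a depolarised membrane, and kainate receptors tune release and excitability. Metabotropic receptors are coupled to G proteins and act more slowly: Grm5 encodes a receptor that stimulates phospholipase C, whereas Grm2, Grm3, Grm4, Grm7 and Grm8 encode receptors that inhibit adenylyl cyclase and, at terminals, reduce transmitter release. Several TARPs, though not all, and cornichons carry AMPA receptors to the membrane and slow their closing, and Neto proteins do the same for kainate receptors. Trafficking of AMPA receptors and the entry of calcium through NMDA receptors in prefrontal cortex are studied as steps of fear memory storage.

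Levels of different genes were compared as CPM per kilobase of exon, because the exons of the 32 genes sum to between 1.37 and 24.8 kb. That length counts every annotated exon of a gene, whether or not its transcripts here held it, so the order depends on it. By this measure Gria1 was the most abundant, at 106 ± 15.5 in PL Dex, 102 ± 4.22 in PL saline, 124 ± 8.01 in IL Dex and 128 ± 5.19 CPM per kb in IL saline (SD, n = 3 here and below). Grin2b, which encodes the NMDA receptor subunit GluN2B, followed at 90.1 ± 5.21, 90.4 ± 3.46, 84.7 ± 5.48 and 78.5 ± 6.35 CPM per kb in the same order of groups. Gria2, whose edited product makes AMPA receptors impermeable to calcium, averaged 76.5 CPM per kb over the 12 libraries. Cnih2 (69.7), Grm3 (52.8), Grm5 (52.3) and Gria3 (48.4 CPM per kb over the 12 libraries) came next. The scarcest were Grm8 (4.72), the TARP gene Cacng5 (3.95), the kainate receptor gene Grik1 (3.93) and Grin2d (1.58 CPM per kb). Most neighbours in this order could not be separated: the ranges of 3 libraries overlapped for 27 of the 31 neighbouring pairs in PL Dex, 24 in PL saline, 22 in IL Dex and 22 in IL saline. Gria1 lay above the next gene without overlap in PL Dex and PL saline, where that gene was Grin2b, but in IL Dex and IL saline Gria1 lay above Cnih2, and Cnih2 and Grin2b overlapped. Without division by length, Gria2 exceeded Gria1 in every group. The mean CPM of Gria2 and Gria1 were 1078 against 642 in PL Dex and 1347 against 614 in PL saline. In IL Dex they were 1171 against 751, and in IL saline 1162 against 774 CPM.

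**Figure D1:**
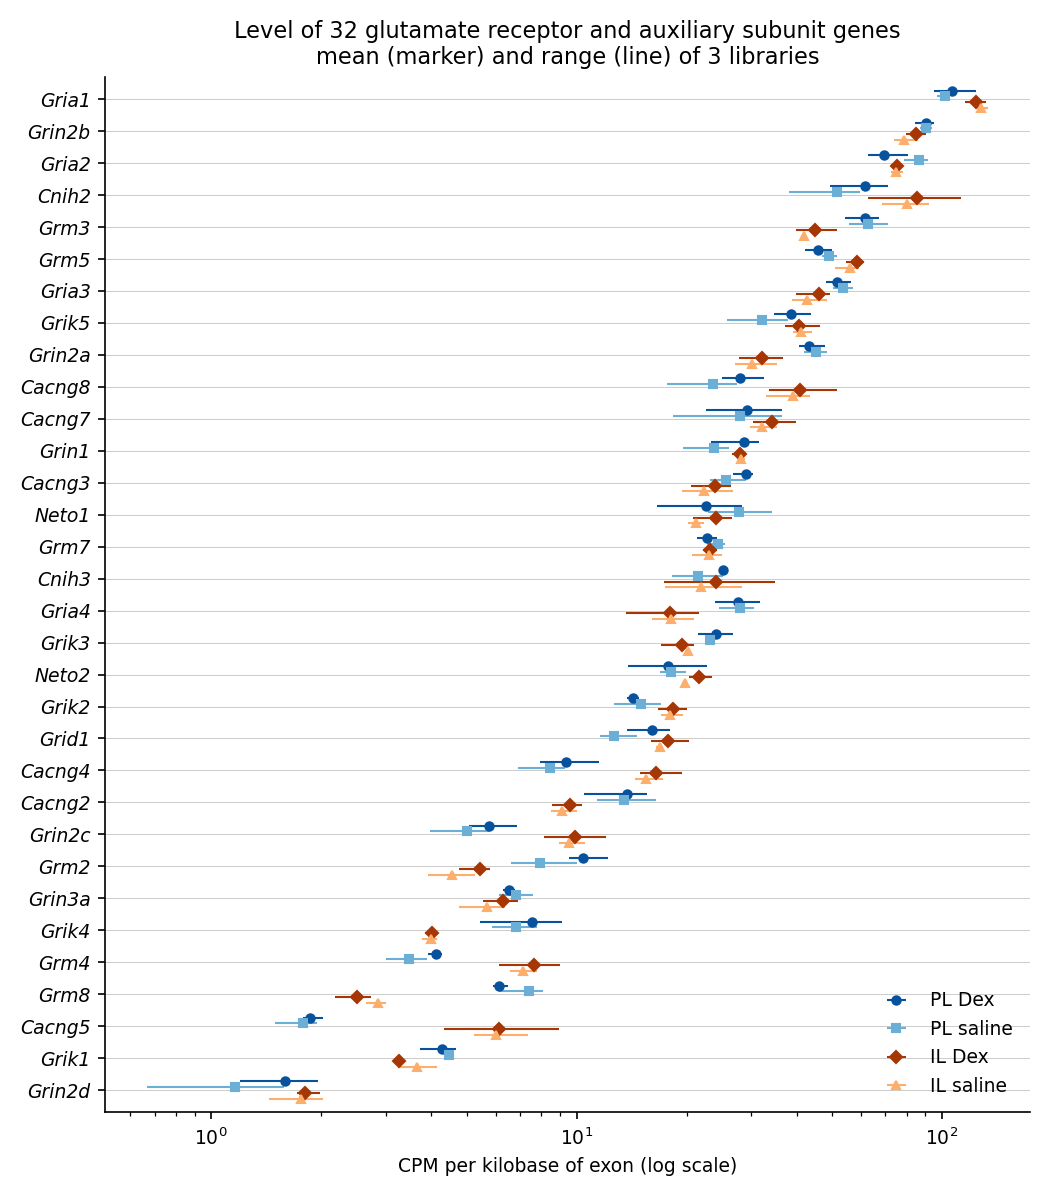
Level of each of the 32 genes as CPM per kilobase of exon (horizontal log axis), with the mean of 3 libraries as a marker and their range as a line for PL Dex, PL saline, IL Dex and IL saline. Genes run down the page by their mean over 12 libraries, from Gria1 (115) to Grin2d (1.58); most neighbours overlap, whereas Grm8, Grik4, Grm4 and Cacng5 show PL and IL apart.

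Within each class the make-up per kilobase, which rests on the same exon lengths, was as follows. Gria1 supplied 41.8% ± 5.73 of the AMPA subunit RNA per kilobase in PL Dex, 37.7% ± 0.775 in PL saline, 47.2% ± 2.94 in IL Dex and 48.6% ± 2.03 in IL saline. Gria4 supplied 10.8% ± 1.51 in PL Dex, 10.4% ± 1.12 in PL saline, 6.85% ± 1.58 in IL Dex and 6.88% ± 0.856 in IL saline. Among NMDA receptor genes, Grin2b made up 51.2% ± 1.81, 52.5% ± 2.30, 52.0% ± 1.13 and 51.0% ± 0.366 of the class in PL Dex, PL saline, IL Dex and IL saline. Grin1, the subunit that every NMDA receptor needs, made up 16.3% ± 2.68, 13.8% ± 1.95, 17.3% ± 1.21 and 18.4% ± 0.987 in that order of groups, below Grin2b in each. Kainate receptor RNA was led by Grik5, which forms channels only with other subunits, at 43.5% ± 1.51 in PL Dex, 39.2% ± 5.31 in PL saline, 47.3% ± 3.24 in IL Dex and 47.3% ± 1.95 in IL saline. The metabotropic class was led by different genes in the 2 regions: Grm3 held 40.8% ± 2.73 in PL Dex and 40.4% ± 3.04 in PL saline, against 31.5% ± 2.20 in IL Dex and 31.0% ± 0.865 in IL saline. Grm5 held 30.4% ± 1.83 in PL Dex and 31.7% ± 2.57 in PL saline, against 41.1% ± 0.828 in IL Dex and 41.3% ± 1.87 in IL saline. By mean CPM alone Grm5 exceeded Grm3 in every group, with 470 against 188 in PL Dex and 502 against 191 in PL saline. Over the class, AMPA receptor genes summed to 255 ± 13.4 in PL Dex, 269.8 ± 11.7 in PL saline, 263 ± 4.29 in IL Dex and 264 ± 3.42 CPM per kb in IL saline.

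The first question is whether dexmedetomidine changed these genes in prelimbic cortex, the region named in the series title. No member passed an adjusted p of 0.05 in edgeR's quasi-likelihood test (0 of 32, where 0.02% of all tested genes passed), and none passed in DESeq2, where 0.615% of all genes did. At an unadjusted p under 0.05 stood 6 of 32 members (Gria2, Grik5, Grin1, Grid1, Grm2 and Grm8), and 13.9% of all genes. The median log2 fold change, Dex over saline, was 0.06 over the members with 18 of 32 positive, against 49.7% positive over all genes. The 95% intervals of the single genes reached from −0.67 (lower bound for Neto1) to 1.00 (upper bound for Grin2d). In 1 member, Grm4, the groups did not overlap (24.8, 25.5 and 23.4 CPM in PL Dex against 23.2, 17.9 and 21.4 CPM in PL saline; log2 fold change 0.24, SE 0.152, edgeR adjusted p 0.481). Among all genes 14.4% had groups that did not overlap.

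Gria2 had the smallest p of the members in PL. Its level was 1003, 977 and 1253 CPM in PL Dex libraries 1 to 3, against 1427, 1389.7 and 1225 CPM in PL saline libraries 1 to 3. The groups overlapped, since PL Dex library 3 lay just above PL saline library 3. The difference on the log2 scale was −0.32 with an SE of 0.101 (95% interval −0.53 to −0.11, edgeR adjusted p 0.214). Grid1, which encodes a delta receptor that joins pre- and postsynaptic membranes through cerebellins, had 98.0, 108 and 82.0 CPM in PL Dex against 87.3, 70.4 and 69.0 CPM in PL saline (log2 fold change 0.35, SE 0.125, edgeR adjusted p 0.254). Grm2 had 59.7, 46.7 and 46.8 CPM in PL Dex against 32.3, 35.1 and 48.9 CPM in PL saline (log2 fold change 0.39, SE 0.161, edgeR adjusted p 0.3004). Here PL saline library 3 stood above 2 of the PL Dex libraries. Grin1 had 307, 304 and 226 CPM in PL Dex against 247, 190.0 and 253 CPM in PL saline; only PL Dex library 3 lay inside the saline range (log2 fold change 0.28, SE 0.121, edgeR adjusted p 0.316). Without the GC correction described below, whether members passed turned on PL Dex library 3. With that library left out Gria2 (−0.44, edgeR adjusted p 0.00782), Grin1 (0.42, 0.0224) and Grid1 (0.45, 0.0268) passed. In that fit 7.07% of 20997 tested genes passed. With the 3 PL libraries nearest to IL left out, which leaves 1 PL Dex library assumed to vary like the other groups, the log2 fold changes were −0.05 for Gria2, 0.04 for Grin1 and 0.24 for Grid1 (edgeR adjusted p 0.957, 0.980 and 0.887).

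In PL the drug difference of a member tracked the GC content of its transcript. GC content of the longest transcript ran from 36.5% to 65.1% over the 32 genes. All 9 members with at least 55% GC had a positive log2 fold change (median 0.25), and 0 of the 9 members under 45% GC did (median −0.07). Spearman's rho between GC content and the log2 fold change was 0.863 over the 32 members and 0.549 over 19270 genes, as a description: all points come from the same 6 libraries. With a GC correction of each library the medians were −0.03 and 0.08, rho was −0.33 over the members and 0.011 over the genes, and no member was called (0.005% of all genes were). Gria2, at 36.8% GC, then had a log2 fold change of 0.01 (edgeR adjusted p 0.991), Grin1, at 59.4% GC, one of 0.01 (0.993) and Grm2, at 56.9% GC, one of 0.17 (0.907). Grid1, at 49.9% GC, kept 0.31 (edgeR adjusted p 0.798). With the correction and PL Dex library 3 left out, 0 members were called. There Gria2 had −0.03 (edgeR adjusted p 0.903), Grin1 0.09 (0.733) and Grid1 0.40 (0.137). In IL, rho was −0.01 over the members and −0.04 over the genes. What gave rise to the relation was not tested.

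**Figure D2:**
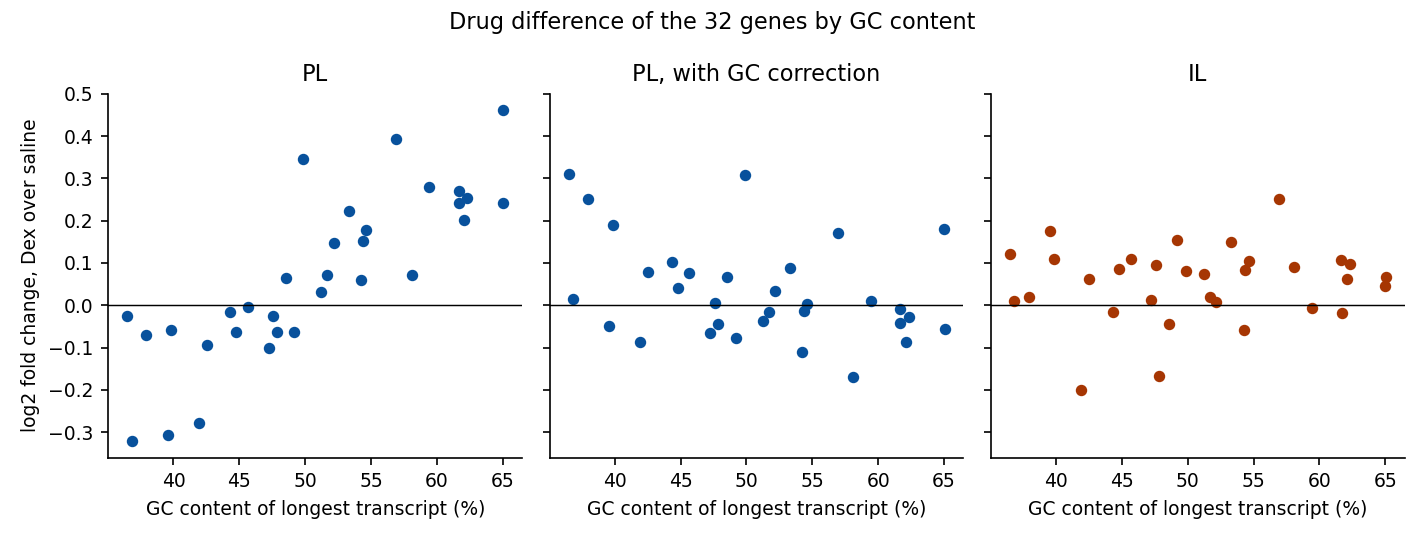
Log2 fold change of Dex over saline (vertical axis) against the GC content of the longest transcript in percent (horizontal axis), with 1 point per gene for the 32 genes, in PL, in PL after the GC correction and in IL. In PL all 9 genes with at least 55% GC lie above 0 and all 9 under 45% lie below it; Spearman's rho is 0.863 in PL, −0.33 in PL after the correction and −0.01 in IL.

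In infralimbic cortex the drug difference was not called for any member either. None passed in edgeR or DESeq2 (0 of 32, with 0.0% of all genes), 0 members had an unadjusted p under 0.05 (1.06% of all genes), and the bounds of the 95% intervals ran from −0.48 (Grm8) to 0.66 (Cnih3) on the log2 scale. The members with the smallest p were Grm2, Grm8 and Grin3a. Grm2 had 28.1, 23.3 and 28.3 CPM in IL Dex against 21.9, 19.2 and 25.8 CPM in IL saline, a log2 fold change of 0.25 (SE 0.165, edgeR adjusted p 1.000). Grm8 had 25.7, 27.0 and 21.6 CPM in IL Dex against 29.8, 29.0 and 26.2 CPM in IL saline (−0.20, SE 0.134). Grin3a, whose product lowers the calcium flow of NMDA receptors, had 68.1, 78.8 and 85.0 CPM in IL Dex against 58.4, 77.9 and 72.4 CPM in IL saline (0.15, SE 0.122). The groups overlapped for all 3 genes. Within the pairs of same-numbered libraries Grm2 and Grin3a were higher in IL Dex in 3 of 3 and Grm8 lower in 3 of 3. These genes were picked by their p in this comparison, so the agreement of their pairs is no further support. With the number as a block none passed either. Neto2 was the member whose IL groups did not overlap, with 124, 143 and 129 CPM in IL Dex against 120.3, 121 and 123 CPM in IL saline; 7.78% of all genes had such groups. The difference between the 2 drug effects, tested as an interaction, was called for 0 of 32 members in edgeR and DESeq2 and for 0.0% of all genes. Gria2 was the 1 member with an unadjusted p under 0.05 (6.73% of all genes), with an interaction of −0.33 (SE 0.142, edgeR adjusted p 0.716).

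The comparison of PL with IL gave more calls. In Dex mice 12 of 32 members (37.5%) passed an adjusted p of 0.05 in edgeR, where 7.34% of all tested genes and 10.0% of the genes at or above the mean level of the scarcest member did. In saline mice 15 of 32 (46.9%) passed, where 18.7% of all genes and 26.9% of genes at such levels did. In Dex mice 7 members were higher in PL (3.8% of all genes) and 5 lower (3.54%), and in saline mice 8 were higher (9.97%) and 7 lower (8.7%). The same 11 members were called in the same direction in both: Grm8, Grm2, Grik4, Gria4, Grm3, Grin2a and Cacng2 were higher in PL, and Cacng5, Grm4, Cacng4 and Grin2c were lower. DESeq2 called 8.97% of all genes in Dex mice and 20.2% in saline mice, and 15 and 16 of the members. With the GC correction 15 members were called in Dex mice and 18 in saline mice (9.44% and 13.4% of all genes), and with the batch number of the labels as a block 13 and 18 (8.63% and 20.9%). At an unadjusted p under 0.05 stood 18 members in Dex mice (19.8% of all genes) and 24 in saline mice (32.6%). The 3 PL and 3 IL libraries did not overlap for 17 members in Dex mice (21.6% of all genes) and 24 in saline mice (40.3%). The 11 shared calls are 91.7% of the Dex calls and 73.3% of the saline calls, whereas of all genes 75.2% of the Dex calls and 29.6% of the saline calls were shared. The sign was the same in both treatments for 27 of 32 members and for 69.5% of all genes; the 2 comparisons share no library. In the main edgeR fit (all 12 libraries, no GC correction), Gria1, Gria3, Grid1 and Cacng8 passed in saline mice only and Grm5 in Dex mice only. Other fits without that correction differed. DESeq2 called Cacng8 in Dex mice (adjusted p 0.0421), and edgeR with library totals alone called Grm5 in saline mice (adjusted p 0.0244). No interaction was called for any of these genes. Bulk tissue cannot tell fewer cells of a type from less RNA per cell.

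**Figure D3:**
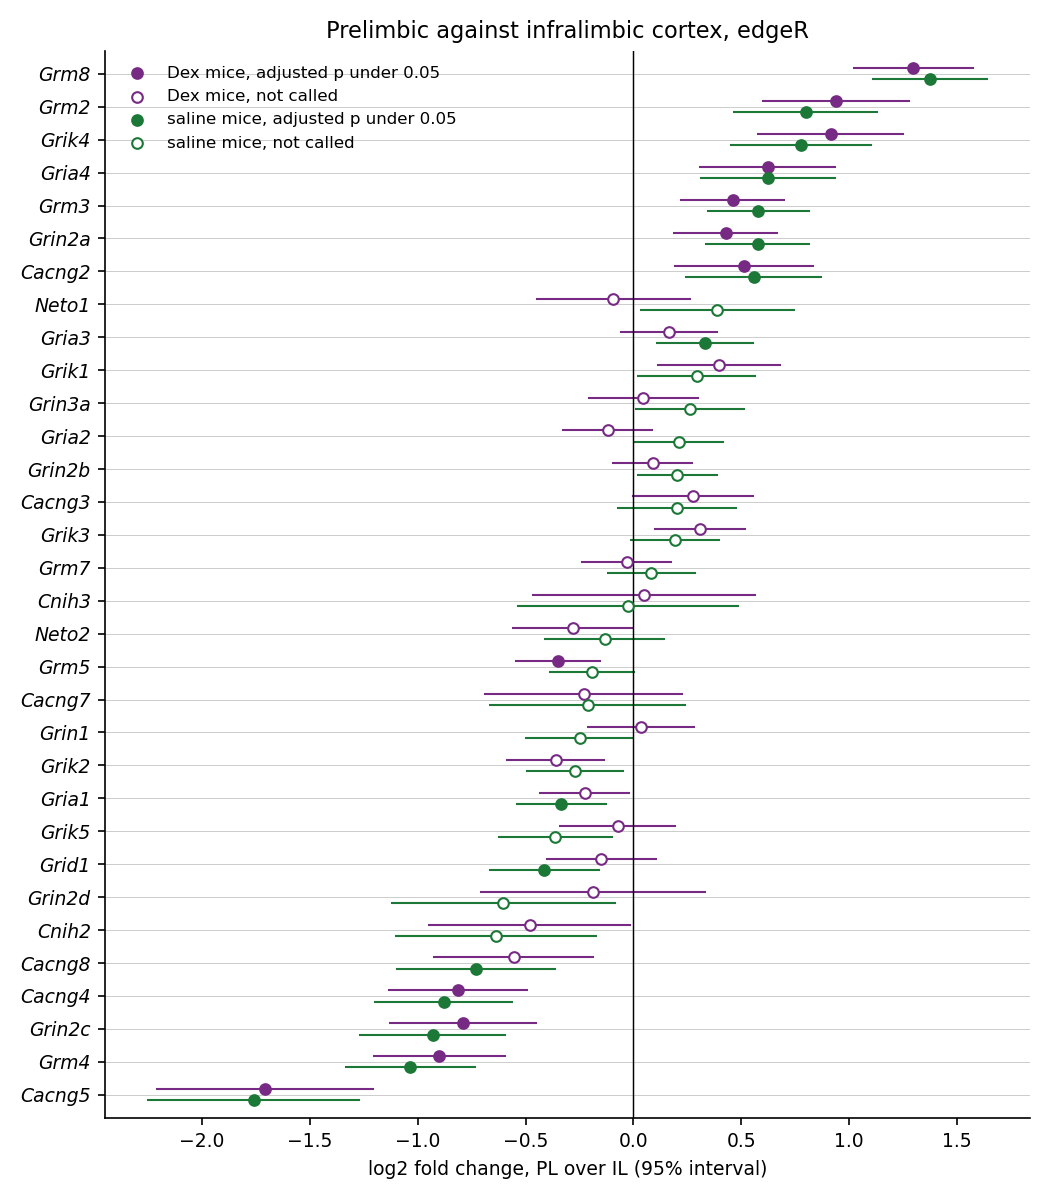
Log2 fold change of PL over IL with its 95% interval (horizontal axis) for each of the 32 genes in Dex mice and in saline mice, from edgeR; filled circles passed an adjusted p of 0.05. Grm8 (1.30 in Dex mice, 1.38 in saline mice) and Cacng5 (−1.71 and −1.76) stand at the ends.

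Among the metabotropic receptors that inhibit release, members of one family differed in opposite directions. Grm8 (GRCm38 chromosome 6, 27275119 to 28135178) had 58.5, 64.3 and 58.8 CPM in PL Dex, 60.7, 80.0 and 79.1 in PL saline, 25.7, 27.0 and 21.6 in IL Dex, and 29.8, 29.0 and 26.2 CPM in IL saline. Every PL library thus held more Grm8 than every IL library. The log2 fold change of PL over IL was 1.30 in Dex mice (SE 0.134, edgeR adjusted p 1.11e-05) and 1.38 in saline mice (SE 0.128, 2.91e-06). Grm2 (chromosome 9, 106643095 to 106656082), a presynaptic brake on glutamate release, had 59.7, 46.7 and 46.8 CPM in PL Dex, 32.3, 35.1 and 48.9 in PL saline, 28.1, 23.3 and 28.3 in IL Dex, and 21.9, 19.2 and 25.8 CPM in IL saline. Its log2 fold changes were 0.94 in Dex mice (SE 0.165, edgeR adjusted p 0.00118) and 0.80 in saline mice (SE 0.162, 0.00217). Exons of Gm28111 overlap Grm2 on the other strand, and counting used no strand. Grm3 (chromosome 5, 9485541 to 9725170), expressed by neurons and astrocytes, had 193, 166 and 205 CPM in PL Dex, 170.1, 217 and 187 in PL saline, 157, 132 and 122 in IL Dex, and 131, 127 and 127 CPM in IL saline. For Grm3 the differences were 0.46 (SE 0.116, edgeR adjusted p 0.0173) and 0.58 (SE 0.115, 0.00185) in Dex and saline mice; the call in Dex mice was lost without PL Dex library 1 (0.0614) or IL Dex library 2 (0.0827) or 3 (0.0861).

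Grm4 (chromosome 17, 27422387 to 27521403), a release-inhibiting receptor like Grm8, ran the other way. It had 24.8, 25.5 and 23.4 CPM in PL Dex, 23.2, 17.9 and 21.4 in PL saline, 36.5, 53.7 and 46.9 in IL Dex, and 42.1, 46.4 and 39.2 CPM in IL saline. All 6 PL libraries lay below all 6 IL libraries, with log2 fold changes of −0.90 in Dex mice (SE 0.147, edgeR adjusted p 0.000731) and −1.03 in saline mice (SE 0.146, 0.000114). At 61.7% GC, its saline difference was −0.64 with the GC correction (edgeR adjusted p 0.00565). Grm5, the receptor coupled to phospholipase C, had 432, 466 and 512 CPM in PL Dex, 527, 496 and 481 in PL saline, 627, 609 and 560.1 in IL Dex, and 609, 589 and 522 CPM in IL saline. It was lower in PL in Dex mice (−0.35, SE 0.0956, edgeR adjusted p 0.0282) and did not pass in saline mice (−0.19, SE 0.0952, 0.167). With the GC correction it passed in both, at −0.35 in Dex mice (edgeR adjusted p 0.00438) and −0.37 in saline mice (0.00242). The call in Dex mice was lost without PL Dex library 1 (0.146) or 2 (0.0547), without IL Dex library 1 (0.114) or 2 (0.109), and with the 3 PL libraries nearest to IL left out together (0.249). Grm7, the remaining release-inhibiting receptor, had 134 ± 8.62 CPM in PL Dex, 143 ± 8.72 in PL saline, 137 ± 6.15 in IL Dex and 135 ± 12.8 CPM in IL saline, with 95% intervals of −0.24 to 0.18 in Dex mice and −0.12 to 0.29 in saline mice.

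**Figure D4:**
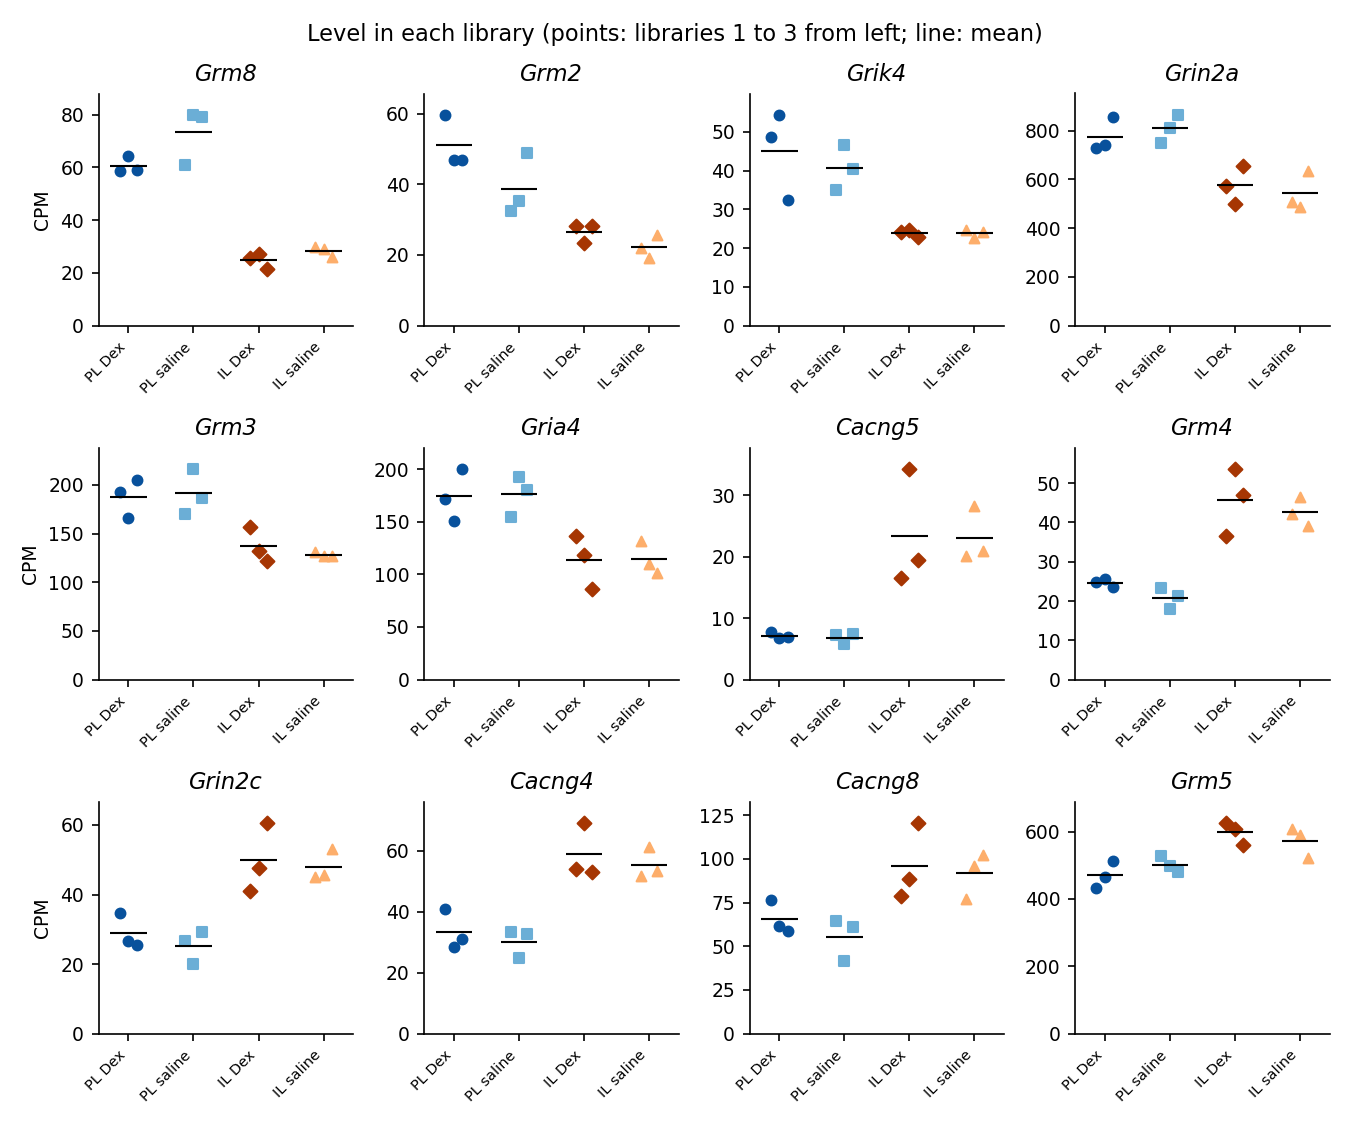
Level in each library in CPM (vertical axis, from 0) for 12 members, with libraries 1 to 3 of PL Dex, PL saline, IL Dex and IL saline as points and the mean as a line. Grm8, Grm2, Grik4, Grin2a, Grm3 and Gria4 are higher in all PL than in all IL libraries; Cacng5, Grm4, Grin2c, Cacng4 and Cacng8 are lower in all PL libraries; Grm5 overlaps.

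To show promoters of members called in both treatments, the 250 bases upstream of a RefSeq transcription start (GRCm38.p6, all on the minus strand, 5′ to 3′) are given for 2 members higher in PL, Grm8 (chr6:28135147-28135396) and Grm2 (chr9:106656110-106656359), and 2 lower in PL, Cacng5 (chr11:107915056-107915305) and Grin2c (chr11:115267244-115267493). Capitals mark the GC box GGGCGG or its reverse complement CCGCCC, the core of the binding motif of Sp1-type factors.
Grm8: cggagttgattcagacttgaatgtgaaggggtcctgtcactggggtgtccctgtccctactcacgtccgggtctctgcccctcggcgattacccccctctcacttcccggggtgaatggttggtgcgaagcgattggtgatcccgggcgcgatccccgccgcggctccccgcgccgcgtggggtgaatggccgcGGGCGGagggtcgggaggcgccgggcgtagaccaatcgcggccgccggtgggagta
Grm2: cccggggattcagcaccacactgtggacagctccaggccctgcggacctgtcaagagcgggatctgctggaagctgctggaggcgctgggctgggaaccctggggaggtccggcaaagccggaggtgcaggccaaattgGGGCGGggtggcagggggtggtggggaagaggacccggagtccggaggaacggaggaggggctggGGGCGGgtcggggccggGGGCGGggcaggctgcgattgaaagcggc
Cacng5: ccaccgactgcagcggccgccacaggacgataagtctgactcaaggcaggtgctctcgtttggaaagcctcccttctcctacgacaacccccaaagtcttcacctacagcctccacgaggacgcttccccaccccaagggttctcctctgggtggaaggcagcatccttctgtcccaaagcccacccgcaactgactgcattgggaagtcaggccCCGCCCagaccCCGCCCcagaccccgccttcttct
Grin2c: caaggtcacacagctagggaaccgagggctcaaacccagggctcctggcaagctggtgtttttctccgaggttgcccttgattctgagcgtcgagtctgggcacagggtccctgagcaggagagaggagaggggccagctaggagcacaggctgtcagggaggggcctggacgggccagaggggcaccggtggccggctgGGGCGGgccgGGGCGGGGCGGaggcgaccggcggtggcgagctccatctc
A GC box stood in all 4 (1 in Grm8, 3 in Grm2, 2 in Cacng5 and 3 in Grin2c, with overlapping matches), and in 32.7% of 32851 promoter windows of the same length. The TATA box TATAAA and the cAMP response element TGACGTCA, searched on both strands, stood in none of the 4, and in 12.4% and 1.55% of all windows. A match is a description of these letters and not evidence of binding.

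Auxiliary subunits of AMPA receptors split in the same way. Cacng5 (chromosome 11, 107874605 to 107915055), a gene of the TARP family, had 7.75, 6.82 and 6.91 CPM in PL Dex, 7.29, 5.74 and 7.49 in PL saline, 16.6, 34.4 and 19.5 in IL Dex, and 20.1, 28.3 and 20.9 CPM in IL saline. The PL libraries lay close together and every one was below every IL library. Its log2 fold change was −1.71 in Dex mice (SE 0.242, edgeR adjusted p 0.000200), a level 0.306 times that of IL, and −1.76 in saline mice (SE 0.237, 7.66e-05), or 0.295 times. Cacng4 (chromosome 11, 107732357 to 107794557), a near neighbour of Cacng5 on the chromosome, had 41.1, 28.3 and 31.0 CPM in PL Dex, 33.3, 24.7 and 32.6 in PL saline, 54.2, 69.3 and 53.1 in IL Dex, and 51.6, 61.4 and 53.3 CPM in IL saline. It was lower in PL, with log2 fold changes of −0.81 in Dex mice (SE 0.156, edgeR adjusted p 0.00244) and −0.88 in saline mice (SE 0.154, 0.000675). Cacng8, the main TARP of the hippocampus, had 76.2, 61.7 and 58.7 CPM in PL Dex, 64.2, 41.5 and 60.9 in PL saline, 78.6, 88.2 and 121 in IL Dex, and 77.1, 96.0 and 102 CPM in IL saline. It passed in saline mice (−0.73, SE 0.177, edgeR adjusted p 0.00897) and not in Dex mice (−0.56, SE 0.178, 0.0695). DESeq2 called it in Dex mice (−0.55, adjusted p 0.0421). With the GC correction the difference was −0.27 in saline mice (edgeR adjusted p 0.0844) and −0.36 in Dex mice (0.0295).

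Cacng2 encodes stargazin, the founding TARP. It had 83.4, 57.8 and 85.9 CPM in PL Dex, 62.6, 68.5 and 91.0 in PL saline, 55.1, 47.1 and 56.8 in IL Dex, and 47.0, 48.8 and 55.2 CPM in IL saline. All PL libraries were above all IL libraries, but PL Dex library 2 only by a narrow margin. The log2 fold change was 0.51 in Dex mice (SE 0.155, edgeR adjusted p 0.0478) and 0.56 in saline mice (SE 0.152, 0.0151). The call in Dex mice was among the least stable: it was lost without PL Dex library 1 (0.172) or 3 (0.178), with PL saline library 2 left out (0.0576), without any 1 of the IL Dex libraries (0.0928, 0.209 and 0.0717 for libraries 1 to 3) or without any 1 of the IL saline libraries (0.0609, 0.0637 and 0.0543), and with library totals alone (0.0773). In saline mice it was lost without PL saline library 3 (0.0994) or IL saline library 1 (0.0652) or 2 (0.0596). Exons of A730060N03Rik overlap Cacng2 on the other strand. Cacng3 and Cacng7, the other TARPs, were not called without a GC correction: Cacng3 had 80.6 ± 5.53 CPM in PL Dex, 71.2 ± 8.38 in PL saline, 66.5 ± 8.40 in IL Dex and 61.8 ± 11.1 CPM in IL saline, and Cacng7 had 71.4 ± 17.03, 68.2 ± 22.2, 83.6 ± 12.2 and 78.7 ± 6.92 CPM in that order of groups. With the GC correction Cacng3 was higher in PL in saline mice (0.40, edgeR adjusted p 0.0198, against 0.20 and 0.309 without it). Cnih2, a cornichon, had 84.2 ± 15.3 CPM in PL Dex, 70.8 ± 16.1 in PL saline, 117 ± 34.7 in IL Dex and 109.8 ± 15.9 CPM in IL saline. Its difference in saline mice was −0.64 (SE 0.217, edgeR adjusted p 0.0575), and the edgeR adjusted p was 0.0138 with the batch number of the labels as a block. DESeq2 called Cnih2 in saline mice (adjusted p 0.0168). With no low-count filter edgeR called it in saline mice (adjusted p 2.28e-05) and in Dex mice (0.00739). With the GC correction the saline difference was −0.23 (edgeR adjusted p 0.280). Exons of Yif1a overlap Cnih2 on the other strand. Cnih3 was not called, with 95% intervals of −0.47 to 0.57 in Dex mice and −0.54 to 0.49 in saline mice.

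Of the AMPA receptor subunits, Gria4 and Gria1 differed in opposite directions. Gria4 (chromosome 9, 4417896 to 4796234), whose product gives fast channels and is abundant in interneurons, had 171, 151 and 200.5 CPM in PL Dex, 155, 193 and 180.3 in PL saline, 137, 118 and 86.1 in IL Dex, and 132, 109.6 and 102 CPM in IL saline. It was higher in PL, with log2 fold changes of 0.62 in Dex mice (SE 0.152, edgeR adjusted p 0.0155) and 0.62 in saline mice (SE 0.150, 0.00780). The Dex call was lost without PL Dex library 3 (0.1095) or IL Dex library 3 (0.0691). Gria1, the subunit most tied to activity-dependent insertion of receptors, had 602, 749 and 576 CPM in PL Dex, 631, 627 and 585 in PL saline, 699, 758 and 795 in IL Dex, and 773, 806 and 743 CPM in IL saline. PL Dex library 2 reached into the IL range, and the PL saline libraries did not. Gria1 was lower in PL in saline mice (−0.33, SE 0.101, edgeR adjusted p 0.0258) and did not pass in Dex mice (−0.23, SE 0.101, 0.214). The saline call was lost without PL saline library 2 (0.0701) or 3 (0.0812) and without IL saline library 1 (0.0701) or 2 (0.103), and the Dex difference passed without PL Dex library 2 (−0.34, 0.0254).

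Gria3 had 474, 493 and 554 CPM in PL Dex, 497, 562 and 526 in PL saline, 477, 393 and 488 in IL Dex, and 398, 383 and 478 CPM in IL saline. It was higher in PL in saline mice (0.33, SE 0.108, edgeR adjusted p 0.0374) but not past the threshold in Dex mice (0.16, SE 0.109, 0.446). At 39.8% GC it was sensitive to the GC correction, which gave 0.07 in saline mice (edgeR adjusted p 0.722). The call was also lost without PL saline library 2 (0.154) or 3 (0.0685) or IL saline library 1 (0.137) or 2 (0.172), and with library totals alone (0.118). Gria2 had 1219, 1163 and 1131 CPM in IL Dex and 1216, 1125 and 1145 CPM in IL saline. In the main edgeR fit it was not called between the regions in Dex mice (−0.12, SE 0.101, adjusted p 0.581) or in saline mice (0.21, SE 0.10, 0.147). With the GC correction the saline difference was −0.12. Its PL Dex libraries spread over more than the whole IL range.

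Among NMDA receptor genes, 2 of the 4 GluN2 subunits were called between the regions, in opposite directions. Grin2a (chromosome 16, 9567898 to 9995560) encodes GluN2A, the subunit of fast-closing mature receptors. It had 727, 741 and 858 CPM in PL Dex, 749, 813 and 867 in PL saline, 573, 499 and 657 in IL Dex, and 508, 487 and 633 CPM in IL saline. All PL libraries exceeded all IL libraries, with log2 fold changes of 0.43 in Dex mice (SE 0.117, edgeR adjusted p 0.0281) and 0.58 in saline mice (SE 0.117, 0.00216). The Dex call was lost without PL Dex library 3 (0.0807) or IL Dex library 1 (0.0810) or 2 (0.177). Grin2c (chromosome 11, 115249169 to 115267243), whose product is blocked weakly by magnesium, had 34.6, 26.7 and 25.6 CPM in PL Dex, 26.6, 20.03 and 29.1 in PL saline, 41.0, 47.7 and 60.7 in IL Dex, and 45.1, 45.7 and 53.2 CPM in IL saline. Here all PL libraries were below all IL libraries, with log2 fold changes of −0.79 in Dex mice (SE 0.165, edgeR adjusted p 0.00465) and −0.93 in saline mice (SE 0.164, 0.000706). At 62.1% GC, its saline difference was −0.53 with the GC correction (edgeR adjusted p 0.00279).

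The obligatory subunit Grin1 and the most abundant one, Grin2b, were not called between the regions in the main edgeR fit. Grin2b (chromosome 6, 135713233 to 136173511) had 2099, 2354 and 2265 CPM in PL Dex, 2157, 2328 and 2254 in PL saline, 2094, 1974 and 2245 in IL Dex, and 1883, 1836 and 2129.8 CPM in IL saline. Its region differences were 0.09 in Dex mice (SE 0.0899, edgeR adjusted p 0.657) and 0.20 in saline mice (SE 0.0898, 0.119). Grin1 had 257, 278 and 281 CPM in IL Dex and 272, 267 and 280.5 CPM in IL saline, a tighter spread than in PL. Its region differences were 0.04 in Dex mice (SE 0.121, edgeR adjusted p 0.921) and −0.25 in saline mice (SE 0.120, 0.155), and 0.09 (0.579) in saline mice with the GC correction; exons of the antisense gene Grin1os overlap it. Grin3a had 80.1, 83.02 and 77.0 CPM in PL Dex and 93.2, 82.6 and 75.1 CPM in PL saline, and it was not called against IL (edgeR adjusted p 0.894 in Dex mice and 0.141 in saline mice). Grin2d, which has an overlapping gene on the other strand, had 10.6 ± 2.53 CPM in PL Dex, 7.72 ± 3.06 in PL saline, 12.0 ± 1.03 in IL Dex and 11.7 ± 1.96 CPM in IL saline.

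For kainate receptors, Grik4 was the gene among the 11 members called in both treatments above. Grik4 (chromosome 9, 42518135 to 42944493), whose product needs another kainate subunit to form a channel, had 48.6, 54.4 and 32.4 CPM in PL Dex, 35.1, 46.5 and 40.3 in PL saline, 24.2, 24.8 and 22.9 in IL Dex, and 24.7, 22.5 and 24.1 CPM in IL saline. The IL libraries were tightly grouped and all below the PL libraries. The log2 fold change was 0.92 in Dex mice (SE 0.163, edgeR adjusted p 0.00136) and 0.78 in saline mice (SE 0.158, 0.00223). With the 3 PL libraries nearest to IL left out, which include PL Dex libraries 1 and 2, the difference in Dex mice was 0.45 (edgeR adjusted p 0.0836). Grik2 had 189 ± 7.41 CPM in PL Dex, 198 ± 29.0 in PL saline, 242 ± 21.9 in IL Dex and 239 ± 18.2 CPM in IL saline. It lay just outside the threshold in Dex mice (−0.36, SE 0.110, edgeR adjusted p 0.0512) and further out in saline mice (−0.27, SE 0.109, 0.0896). With the batch number as a block it passed in both (edgeR adjusted p 0.0169 and 0.0344). DESeq2 called Grik2 in Dex mice (adjusted p 0.0391) and not in saline mice (0.0964). Grik5 had −0.36 in saline mice (SE 0.129, edgeR adjusted p 0.0549), or 0.0282 with the block, and 0.02 with the GC correction (0.874). Grik3 had 216 ± 23.5 CPM in PL Dex, 207 ± 4.15 in PL saline, 174 ± 18.4 in IL Dex and 181 ± 1.11 CPM in IL saline. All PL libraries were above all IL libraries. In the main edgeR fit neither difference passed (0.31, SE 0.102, adjusted p 0.0708 in Dex mice, and 0.19, SE 0.101, 0.192 in saline mice). In Dex mice DESeq2 called Grik3 (0.32, adjusted p 0.0354), as did edgeR without PL Dex library 3 (0.39, adjusted p 0.0185). Grik1 had 28.8 ± 3.35 CPM in PL Dex, 30.1 ± 0.605 in PL saline, 21.9 ± 0.532 in IL Dex and 24.6 ± 3.02 CPM in IL saline. It was not called in the main edgeR fit (adjusted p 0.0937 in Dex mice and 0.130 in saline mice). With the GC correction Grik3 passed in Dex mice (0.32, edgeR adjusted p 0.0186) and in saline mice (0.38, 0.00390). Grik2 then passed in both as well, at −0.34 (edgeR adjusted p 0.0151) and −0.58 (0.000203).

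The kainate auxiliary genes Neto1 and Neto2 were not called between regions in the main edgeR fit. Neto1 was called higher in PL in saline mice with no low-count filter (0.37, edgeR adjusted p 0.0178) and without PL Dex library 2 (0.39, 0.0486). In the main fit its saline difference was 0.39 (0.121), and with the GC correction 0.11 (0.628). Neto1, which also binds NMDA receptors, had 188, 139 and 237 CPM in PL Dex (mean 188 ± 49.4), 286, 221 and 192 in PL saline (233 ± 48.5), 206, 223 and 174 in IL Dex (201 ± 25.0), and 169, 186 and 178 CPM in IL saline (178 ± 8.76). Its interaction of −0.48 (SE 0.240, edgeR adjusted p 0.716) was −0.22 with the GC correction and 0.04 with the 3 PL libraries nearest to IL left out. Neto2 had 109 ± 28.01 CPM in PL Dex, 111 ± 10.1 in PL saline, 132 ± 9.98 in IL Dex and 122 ± 1.31 CPM in IL saline. Both had the larger SDs in PL within each treatment. Neto2 was lower in PL in saline mice with the GC correction (−0.48, edgeR adjusted p 0.00792, against −0.13 and 0.526 without it), and in Dex mice without PL Dex library 3 (−0.49, 0.0107, against −0.28 and 0.256). Grid1 (chromosome 14, 34820108 to 35583379) had 102, 95.1 and 121 CPM in IL Dex and 101, 98.2 and 103 CPM in IL saline. It was lower in PL in saline mice (−0.41, SE 0.123, edgeR adjusted p 0.0241) and did not pass in Dex mice (−0.15, SE 0.124, 0.573). The saline call was lost without PL saline library 2 (0.114) or 3 (0.0902) or IL saline library 1 (0.0638), 2 (0.0584) or 3 (0.0724).

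Over all members, 8 genes had all 6 PL libraries above all 6 IL libraries (Grm8, Grm2, Grm3, Grik3, Grik4, Grin2a, Gria4 and Cacng2), as did 5.18% of all tested genes. In 5 members all PL libraries lay below all IL libraries (Cacng5, Grm4, Grin2c, Cacng4 and Cacng8), against 4.6% of all genes. Some lists of cell-type markers differed between the regions as well, and others did not. Of 9 markers of striatal medium spiny neurons, 5 were called lower in PL in Dex mice (median log2 fold change over the list −2.23) and 5 in saline mice (−1.92), and none of the 9 was at 0. All 5 septal markers were called lower in PL in both treatments (medians −2.07 and −2.21), with sums of 52.8 to 59.2 CPM in PL Dex, 44.0 to 83.2 in PL saline, 166 to 191 in IL Dex and 145 to 238 CPM in IL saline. Of 7 markers of excitatory cortical neurons, 4 in Dex mice and 3 in saline mice were called higher in PL (medians 0.60 and 0.53). Markers of GABAergic neurons summed to 507 to 612 CPM in PL Dex, 576 to 800.2 in PL saline, 879 to 1189 in IL Dex and 827 to 1097 CPM in IL saline, and those of astrocytes to 987 to 1234, 1069.7 to 1236, 1293 to 1531 and 1295 to 1536 CPM in that order of groups. Of 8 GABAergic markers, 1 was called higher in PL and 4 lower in Dex mice (median −0.25). In saline mice 1 was higher and 2 lower (median −0.10). Of 9 astrocyte markers 0 were called higher, and 1 in Dex mice and 3 in saline mice lower. Of 7 oligodendrocyte markers 0 were called. Of 4 oligodendrocyte precursor markers, 1 in Dex mice and 3 in saline mice were lower in PL. Of 3 ependymal markers, 2 and 3 were lower in that order. Upper layers had 1 of 5 markers higher and 1 lower in both treatments. Deep layers had 1 of 6 higher and 1 lower in Dex mice, and 3 higher and 1 lower in saline mice. In saline mice only, 1 of 5 microglial markers was lower and 1 of 4 endothelial markers higher. IL Dex library 2, with the highest striatal sum (2023 CPM), also had the highest Cacng5 (34.4 CPM), Grm4 (53.7 CPM) and Cacng4 (69.3 CPM). Its GABAergic sum was the highest too (1189 CPM). Grin2c and Cacng8 were not highest in that library: they had 47.7 and 88.2 CPM, against 60.7 and 121 CPM in IL Dex library 3. IL saline library 1 came next in striatal sum (1684 CPM). It had the lowest Cacng4 of the IL libraries (51.6 CPM), with Cacng5 at 20.1 CPM and Grm4 at 42.1 CPM. PL saline library 1 had the highest striatal sum of the PL libraries (914 CPM), and there Cacng5 was 7.29 CPM and Grm4 23.2 CPM, inside the range of the other PL saline libraries for Cacng5 and just above it for Grm4. The part of these markers in the region differences was not tested.

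Ratios between related subunits within a library do not depend on library totals, but a trend with GC content remains in them. The ratio of Grin2a to Grin2b per kilobase was 0.480 ± 0.0444 in PL Dex, 0.499 ± 0.0290 in PL saline, 0.378 ± 0.0276 in IL Dex and 0.385 ± 0.0239 in IL saline. Every PL library was above every IL library, by a mean log2 difference of 0.34 in Dex mice and 0.38 in saline mice. The ratio of Cacng3 to Cacng8 was 1.05 ± 0.106 in PL Dex, 1.12 ± 0.276 in PL saline, 0.600 ± 0.121 in IL Dex and 0.572 ± 0.0855 in IL saline. It too was above the IL values in every PL library. The ratio of Gria1 to Gria2 was 1.57 ± 0.397 in PL Dex, 1.18 ± 0.0473 in PL saline, 1.65 ± 0.168 in IL Dex and 1.72 ± 0.111 in IL saline. The PL Dex libraries were split, with log2 ratios of 0.63, 0.98 and 0.24 in libraries 1 to 3, against 0.19, 0.21 and 0.30 in PL saline. The difference between the log2 fold changes of Gria1 and Gria2 was 0.39 for Dex over saline in PL and 0.05 after the GC correction, and −0.55 for PL over IL in saline mice and −0.21 after it. For Grin2a and Grin2b the GC-corrected difference of PL over IL was 0.33 in Dex mice and 0.34 in saline mice, and for Cacng3 and Cacng8 it was 0.64 and 0.67. The ratio of Neto1 to Neto2 was 1.27 ± 0.0768 in PL Dex against 1.53 ± 0.179 in PL saline, the only 1 of the 6 ratios whose drug groups did not overlap in PL. Two-sided exact permutation tests of the 6 ratios in 4 comparisons gave no p below 0.1, the smallest that 3 against 3 libraries allow, and all 24 adjusted p were at least 0.3.

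**Figure D5:**
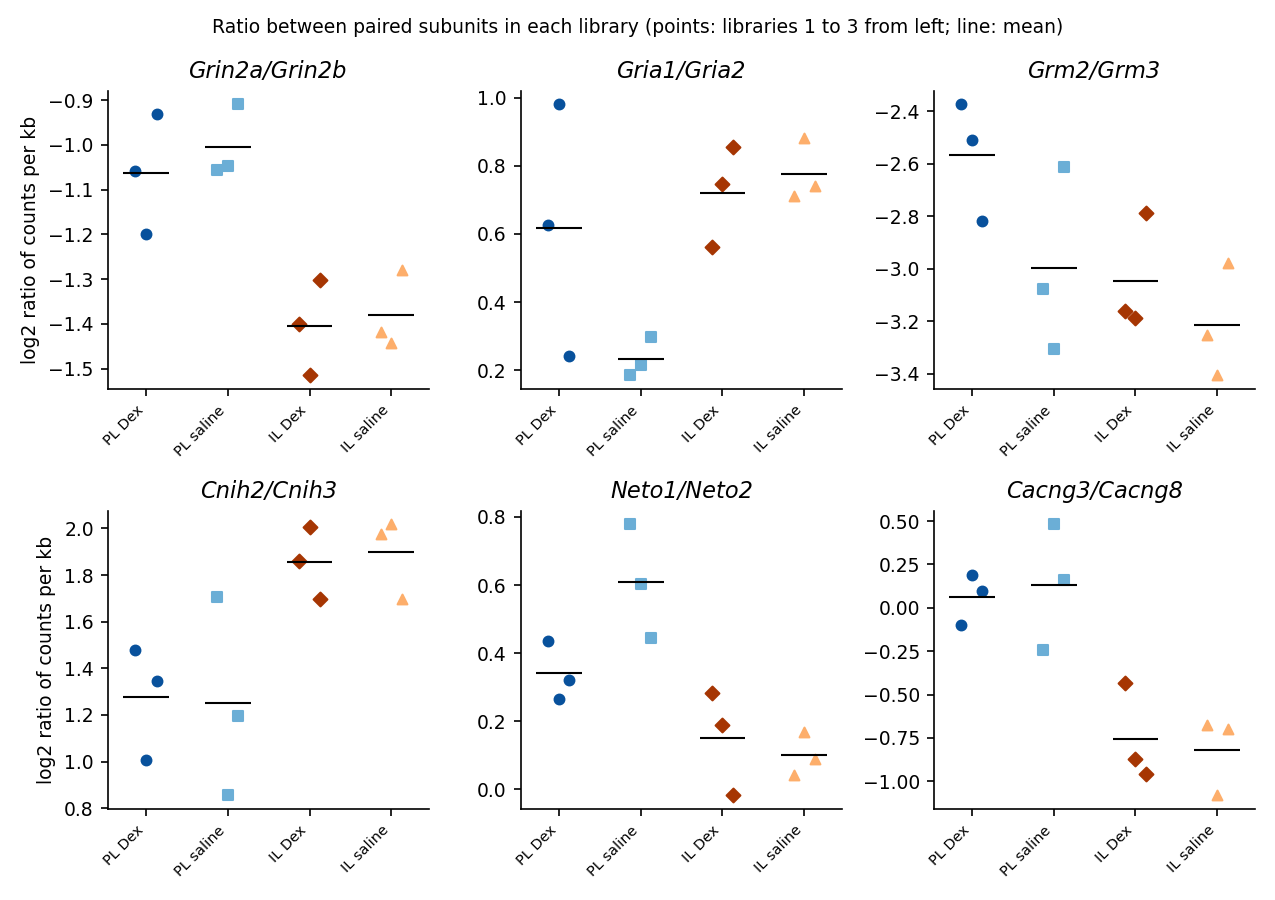
Log2 ratio of counts per kilobase between 6 pairs of related subunits (vertical axis, range set per panel), with libraries 1 to 3 of PL Dex, PL saline, IL Dex and IL saline as points and their mean as a line. Grin2a/Grin2b and Cacng3/Cacng8 are higher in every PL than in every IL library; Gria1/Gria2 is spread from 0.24 to 0.98 within PL Dex.

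Other genes of the glutamate synapse, in 3 lists, were read beside the members. Dexmedetomidine gave 0 calls among 30 scaffold and trafficking genes, 18 further auxiliary or assembly genes and 17 genes of glutamate transport and metabolism, in PL and in IL alike. Between regions, 3 of 30 scaffold and trafficking genes were called higher in PL and 1 lower in Dex mice, and 7 higher and 3 lower in saline mice, where 7.34% and 18.7% of all genes were called in either direction. Nptx1, a secreted pentraxin that clusters AMPA receptors, averaged 482 ± 5.27 CPM in PL Dex against 272 ± 37.8 CPM in IL Dex (log2 fold change 0.83, SE 0.108, edgeR adjusted p 9.05e-05), and 393 ± 38.4 CPM in PL saline against 282 ± 24.1 CPM in IL saline (0.48, SE 0.107, 0.00416). Of the 18 further auxiliary genes, 3 were higher in PL in Dex mice with 0 lower, and 3 were higher and 2 lower in saline mice. Frrs1l, which takes part in the assembly of AMPA receptors in the endoplasmic reticulum, averaged 681 ± 126 CPM in PL Dex against 436 ± 33.4 CPM in IL Dex (0.64, SE 0.118, edgeR adjusted p 0.00162). In saline mice it averaged 748 ± 57.5 CPM in PL against 409 ± 35.8 CPM in IL (0.87, SE 0.118, 7.66e-05). Of the 17 transport and metabolism genes, 2 were higher in PL in Dex mice and 3 in saline mice, with 0 lower in both.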

How the data were processed

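What the authors deposited are whole-number counts per gene. Per the file headers, featureCounts 2.0.1 counted read pairs over the exons of each gene, strand ignored, using a GRCm38 annotation (release 98). Tools listed in the notes of the submitters are bcl2fastq, Trim Galore, HISAT2 and SAMtools 1.8; the build listed there is mm39, whereas the coordinates in the table are those of GRCm38. The table also holds 12 count columns that match no sample in the labels, and they were not used. A symbol was found for 55154 of 55421 identifiers, and 106 symbols were shared by several. Exons of 17 members overlap another gene, 10 of them on the other strand; such reads cannot be told apart or may not have been counted.

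The software was edgeR 4.0.16 under R 4.3.3: filterByExpr on the 4 groups (20015 genes), TMM scaling (factors 0.935 to 1.05), a robust quasi-likelihood fit of 4 group means to all 12 libraries (8 residual degrees of freedom before moderation, common coefficient of variation 0.143), two-sided tests and Benjamini-Hochberg adjustment over all tested genes, with a threshold of 0.05. SE is the absolute log2 fold change divided by the square root of the F statistic. CPM use TMM-scaled totals. Alternatives were DESeq2 1.42.0, other size factors, other filters, a lowess correction for GC content, the batch number as a block, and leaving out libraries. The fitting code was tested on simulated data.

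The batch number in the labels equals the sample number, so it pairs libraries. After removal of group means, same-numbered libraries correlated at 0.299 to 0.347 between IL Dex and IL saline, 0.0141 to 0.126 between PL Dex and PL saline, 0.0311 to 0.213 between PL saline and IL saline, and −0.0979 to 0.0385 between PL Dex and IL Dex. Values with the block are given where they change a call.

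The members, marker lists and pathway lists were chosen with earlier results of these data known. Values per library are given for members past the threshold, for Gria1, Gria2, Grin1, Grin2a, Grin2b and Grm5, and for the 3 members with the smallest p in each drug comparison. Genes of the 3 other lists are named from the up to 4 per list and comparison with the smallest p past the threshold. Promoters are from the RefSeq table of GRCm38.p6, in which 21 members have an entry; the Grm8 window reaches 32 bases inside the gene bounds of the count table.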

Additional observations from a re-analysis of the deposited data

How the results depend on the processing

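Each member's difference in each comparison was recomputed under 22 alternatives. Of the 27 region calls, 16 were kept in all 22, and no called direction was reversed. Leave-one-out fits gave 0 to 2 members called higher and 0 to 1 called lower for Dex against saline in PL; the calls came without PL Dex library 3. For PL against IL in Dex mice they gave 4 to 7 members higher and 4 to 6 lower, with 4 higher without IL Dex library 2 or 3. In saline mice they gave 6 to 9 higher and 5 to 9 lower. With no low-count filter 8 members were lower in PL in Dex mice. With library totals alone 13 were lower in PL in saline mice, where the median of all genes was −0.14, against −0.02 with TMM. Cacng2 in Dex mice and Gria3 in saline mice then lost their calls. For the region counts of the leave-one-out, no-filter and library-total fits, the share of all genes called is not given. Those counts therefore do not set the members apart from other genes. With the batch number as a block, 7 members were higher and 6 lower in Dex mice and 8 higher and 10 lower in saline mice; the block changed no other call than those named for Grik2, Grik5 and Cnih2. With the GC correction Gria3 and Cacng8 lost their saline calls, Grik3 and Grik2 passed in both treatments, Cacng8 passed in Dex mice, and Grm5, Cacng3 and Neto2 passed in saline mice. The cause of these shifts was not tested. Depth limits Grin2d and Cacng5 most, with means of 7.72 and 6.84 CPM in PL saline.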
